A study of Mus musculus with 6 samples.

Results

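Hyaluronan is a long, unbranched sugar polymer of the extracellular matrix, and the 8 genes followed here encode proteins that make it, cut it or bind it. They are *Has1*, *Has2*, *Has3*, *Hyal1*, *Hyal2*, *Cemip*, *Cd44* and *Tnfaip6*, taken by gene name from the deposited table of counts. Each name occurred in 1 row of the 43346 genes of the table, and all 8 genes passed the filter on low counts, which kept 17589 genes for the test. RNA-seq was performed on primary mouse adult fibroblasts (MAFs), cells grown from ear tissue of C57BL6/J mice, all adult and female, with 3 libraries from control and 3 from senescent cultures. Senescence was brought about with 20 Gy of X-rays followed by 21 days of culture, while control cells were sham irradiated. The time in culture of the control cells is not given, so irradiation and time in culture cannot be told apart. Both groups grew at 3% oxygen, were used between passages 3 and 8, and were treated for 2 hours with 100 nM dexamethasone, a glucocorticoid that synchronizes circadian clocks. RNA was collected 12 hours later, so every value describes a single time point after a glucocorticoid pulse in both groups. The labels do not say whether samples of a group came from separate mice or cultures, so p-values measure the spread between these samples, which may be technical.

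Hyaluronan synthases sit in the plasma membrane and join UDP-glucuronic acid and UDP-N-acetylglucosamine into a chain that leaves the cell as it grows. Outside the cell, the chain is bound by CD44 and by matrix proteins, and it is shortened by hyaluronidases and by CEMIP. In skin and cartilage this matrix holds water around the cells. RNA alone was measured here, and hyaluronan itself was not.

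Total counts lay between 50288454 and 82229553 per library. *Cdkn1a* and *Cdkn2a*, which encode inhibitors of the cell cycle, were higher in senescent cells with log2 fold changes of 2.33 and 1.90, and *Mki67* and *Lmnb1* were lower with -5.94 and -3.55. Senescent replicate 3 stood apart from the other senescent libraries. Per gene, the squared count difference within a pair of libraries was, at the median, 13.9 and 19.2 times that of sampling noise for the pairs that hold this library, 2.14 times for senescent replicates 1 and 2, and between 1.79 and 4.25 times for the control pairs. This measure grows with the number of counts, and senescent replicate 3 had the most. Senescent replicate 2 was close to it, with 77416645 counts against 82229553. CPM is a count scaled to a common library size with TMM factors. As a root mean square difference in log2 CPM, the pairs with senescent replicate 3 were at 0.386 and 0.400. Senescent replicates 1 and 2 were at 0.258 and the control pairs between 0.337 and 0.367, so by this measure control libraries differed almost as much. All 8 fibroblast markers were present, and 3 of them were higher (*Dcn*, *Thy1* and *Lum*, with *Dcn* going from 56.6 to 642 CPM), 4 were lower (*Col1a1*, *Col1a2*, *Col3a1* and *Pdgfra*, with *Col1a1* going from 4434 to 763 CPM) and *Pdgfrb* did not pass the test. Of 10 chondrocyte markers, 9 were tested and all 9 were lower in senescent cells, where 34.1% of all tested genes were. The tenth, *Matn1*, was below the filter and went the other way, with 1, 1 and 0 counts in control and 8, 10 and 10 in senescent libraries. The summed level of the 10 was between 5312 and 5876 CPM in control libraries and between 355 and 447 CPM in senescent libraries. *Col2a1*, the cartilage collagen that defines chondrocytes, was at 2716 CPM in control cells, so the control cultures did not carry fibroblast markers alone.

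Of the 8 genes, 5 were higher and 3 were lower in senescent cells, with an adjusted p below 0.05 in the edgeR quasi-likelihood test, Benjamini-Hochberg adjusted over all tested genes. *Has1*, *Has3*, *Cemip*, *Cd44* and *Hyal1* rose, and *Tnfaip6*, *Hyal2* and *Has2* fell. This has to be read against all tested genes, of which 70.3% passed the same threshold, 36.2% as higher and 34.1% as lower. The control and senescent values of all 8 genes did not overlap, as was the case for 75.4% of tested genes. With the threshold of the study's methods, an unadjusted p under 0.05 together with a change of more than 1 on the log2 scale, 5 of the 8 genes were higher and 1 was lower, where 17.8% of tested genes were higher and 12.3% were lower. The median log2 fold change of the 8 genes was 1.68, and that of all tested genes was 0.01. The 8 genes were chosen with earlier results of these data known, so these comparisons only describe them.

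**Figure D1:**
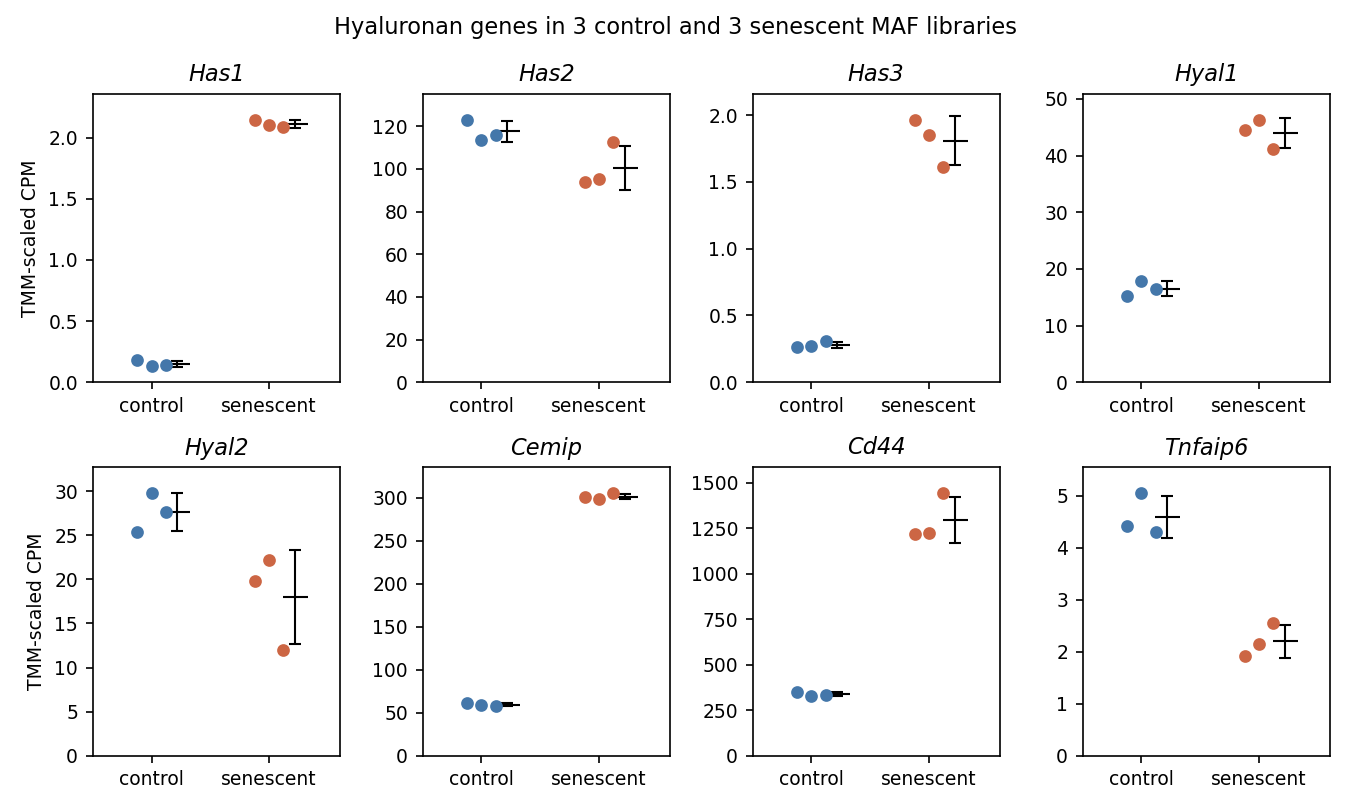
Level of each of the 8 genes in TMM-scaled CPM on a linear axis that starts at 0, with 1 point per library, replicates 1 to 3 from left to right, and the mean ± SD of 3 libraries beside them. *Has1*, *Has3*, *Hyal1*, *Cemip* and *Cd44* sit higher in all 3 senescent libraries, *Hyal2* and *Tnfaip6* sit lower, and senescent replicate 3 of *Has2* comes close to the lowest control library.

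Promoter sequences, from 250 bases before to 50 bases after the start of the gene, were found in RefSeq (build GRCm38.p6, which mm10 names) for 6 of the 8 genes, with none for *Has2* and *Has3*. They are shown for the 3 genes with the largest increases among these 6 and for *Tnfaip6*, which carries the letters bound by AP-1, a transcription factor the study deals with. Capitals mark a match to TGACTCA or TGAGTCA (AP-1), to TGACGTCA (the cyclic AMP response element, CRE), to CACGTG (the E-box bound by BMAL1), each on both strands, or to TATAAA on the strand of the gene. None of these motifs contains another.
Has1, chr17:17855139-17855438, minus strand: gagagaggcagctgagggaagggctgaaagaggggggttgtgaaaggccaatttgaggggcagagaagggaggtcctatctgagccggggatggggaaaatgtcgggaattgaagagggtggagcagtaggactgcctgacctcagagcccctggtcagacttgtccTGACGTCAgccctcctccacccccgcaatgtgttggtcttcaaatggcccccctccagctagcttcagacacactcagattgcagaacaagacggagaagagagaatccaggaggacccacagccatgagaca
Cemip, chr7:84086456-84086755, minus strand: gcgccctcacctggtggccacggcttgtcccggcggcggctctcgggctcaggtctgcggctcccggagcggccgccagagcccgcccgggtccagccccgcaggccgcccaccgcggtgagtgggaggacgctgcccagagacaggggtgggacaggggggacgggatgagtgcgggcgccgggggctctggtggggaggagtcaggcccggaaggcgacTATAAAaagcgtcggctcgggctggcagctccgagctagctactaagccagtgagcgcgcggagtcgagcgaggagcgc
Cd44, chr2:102901616-102901915, minus strand: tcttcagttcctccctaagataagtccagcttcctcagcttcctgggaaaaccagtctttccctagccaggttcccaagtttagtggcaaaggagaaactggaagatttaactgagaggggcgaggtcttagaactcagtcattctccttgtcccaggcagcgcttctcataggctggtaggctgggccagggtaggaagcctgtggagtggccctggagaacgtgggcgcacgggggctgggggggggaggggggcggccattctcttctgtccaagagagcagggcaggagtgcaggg
Tnfaip6, chr2:52037863-52038162, plus strand: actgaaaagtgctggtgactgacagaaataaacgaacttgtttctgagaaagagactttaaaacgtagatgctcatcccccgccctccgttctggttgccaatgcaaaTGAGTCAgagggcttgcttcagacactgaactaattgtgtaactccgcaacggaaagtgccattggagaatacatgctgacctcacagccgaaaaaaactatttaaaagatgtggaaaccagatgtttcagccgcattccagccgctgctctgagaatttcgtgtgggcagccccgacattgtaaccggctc

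The AP-1 letters begin 142 bases before the start of *Tnfaip6* and occur in 5.20% of all 32851 promoters of this length. The CRE letters begin 83 bases before the start of *Has1* and occur in 1.79% of promoters, and TATAAA begins 29 bases before the start of *Cemip* and occurs in 8.32%. The E-box letters occur in 7.15% of promoters and in none of the 6. The promoters of *Hyal1*, *Hyal2* and *Cd44* held none of the 4 motifs in this window. GC content was 73.7% for *Cemip*, between 57% and 58.3% for *Has1*, *Hyal1*, *Hyal2* and *Cd44*, and 47% for *Tnfaip6*, and the median of all promoters was 52.7%. The CRE and TATAAA were added to the search after these sequences had been seen. The start that RefSeq gives lies 104 bases downstream of the start in the deposited table for *Tnfaip6*, and at most 3 bases from it for the other genes printed. For *Hyal1* it lies 23 bases downstream, and for *Hyal2* 1218 bases, so the window searched for *Hyal2* does not hold the start that the table gives.

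Among the synthases, *Has1* (ENSMUSG00000003665) and *Has3* (ENSMUSG00000031910) rose from low levels, while *Has2* (ENSMUSG00000022367) remained by far the most abundant. *Has1* lies on chromosome 17 of mm10 from 17843328 to 17855188. In replicate order, the control libraries held 9, 8 and 7 counts of it and the senescent libraries held 119, 167 and 176. After scaling this was 0.180, 0.134 and 0.143 CPM in control libraries and 2.15, 2.11 and 2.08 CPM in senescent libraries. The 3 senescent values lay close together and far above all control values, with a log2 fold change of 3.78 ± 0.18 (SE), or 13.8-fold (adjusted p = 7.59e-07, edgeR quasi-likelihood test, Benjamini-Hochberg adjusted). A larger increase was seen in 4.10% of tested genes. With so few control counts, *Has1* passed the filter on low counts through its senescent libraries, so it could hardly have been called lower.

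*Has3* lies on chromosome 8 from 106870242 to 106884566. In replicate order, it drew 13, 16 and 15 counts in control libraries against 109, 147 and 136 in senescent libraries. Scaled levels were 0.261, 0.268 and 0.306 CPM in control libraries and 1.97, 1.85 and 1.61 CPM in senescent libraries. All senescent libraries were above all control libraries, and senescent replicate 3 was the lowest of them. The log2 fold change was 2.69 ± 0.18 (SE), or 6.46-fold (adjusted p = 5.07e-06, same edgeR test). *Has3* shares 704 bases of genome with *Chtf8* on the other strand, which had between 6574 and 9435 counts per library. The study used a stranded library kit, so the reads carry their strand. The strand setting of the counting is not given in the sources used here, so reads of this stretch may have been set aside or given to either gene. *Chtf8* itself was lower in senescent cells, with a log2 fold change of -0.40.

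*Has2*, the synthase known as the main one of fibroblasts, lies on chromosome 15 from 56665627 to 56694539. Its level was 123, 114 and 116 CPM in control replicates 1, 2 and 3 and 93.8, 95.1 and 112 CPM in senescent replicates 1, 2 and 3. Senescent replicate 3 came within 2 CPM of the lowest control library, and the other 2 senescent libraries were lower. The log2 fold change was -0.23 ± 0.08 (SE), with a 95% interval from -0.42 to -0.04 and an adjusted p of 0.0379 by the same edgeR test. This small decrease depended on the settings, since the call was lost in 10 of 13 alternatives, among them RLE scaling (adjusted p = 0.0546, edgeR), library size alone (0.144), at least 10 counts in every library (0.0854), DESeq2 (0.0574), a replicate block (0.0618) and leaving out any library other than senescent replicate 3. Without senescent replicate 3 the log2 fold change was -0.31 (adjusted p = 6.53e-06, same edgeR test). *Has2os*, an antisense RNA that shares 4596 bases of genome with *Has2*, had between 115 and 159 counts in every library and a log2 fold change of -0.54 (adjusted p = 0.0178, same edgeR test), with the same limit on strand.

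Levels of different genes are compared per length, as RPKM, which is CPM divided by the exon length in kilobases. *Has2* was at 27.7 ± 1.15 RPKM in control and 23.7 ± 2.46 RPKM in senescent cells (SD, n = 3 per group). *Has1* was at 0.0729 ± 0.0118 and 1.01 ± 0.0150 RPKM, and *Has3* at 0.0436 ± 0.00387 and 0.284 ± 0.0285 RPKM. *Has2* therefore made up 99.6% ± 0.0219 of the summed RPKM of the 3 synthases in control and 94.8% ± 0.633 in senescent cells, while *Has1* went from 0.261% ± 0.0308 to 4.07% ± 0.421 and *Has3* from 0.157% ± 0.0174 to 1.15% ± 0.212 (SD, n = 3 per group). The sum of the 3 synthases was 29.2, 26.9 and 27.5 RPKM in control replicates 1, 2 and 3 and 23.5, 23.7 and 27.8 RPKM in senescent replicates 1, 2 and 3, and the ranges of both groups overlapped. The ratio of *Has2* to *Has1* within a library fell by 4.04 on the log2 scale, from 8.58 ± 0.17 to 4.55 ± 0.16, and that of *Has2* to *Has3* fell by 2.93, from 9.32 ± 0.16 to 6.38 ± 0.29 (SD, n = 3 per group). Each ratio was lower in 3 of 3 senescent libraries than in any control library, with p = 0.1 by a two-sided exact permutation test, the smallest p that 3 samples against 3 allow, and 0.133 after Benjamini-Hochberg adjustment over 4 ratios.

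**Figure D2:**
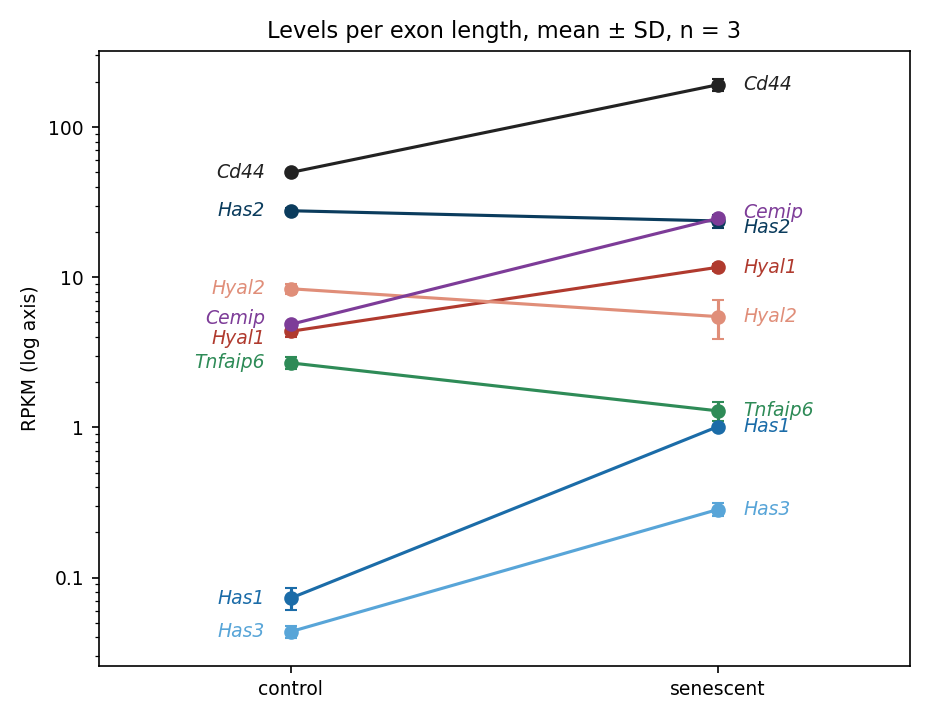
Mean level ± SD of 3 libraries in RPKM on a log axis, for control cells on the left and senescent cells on the right, with 1 line per gene. *Has2* stays near 25 RPKM, *Has1* and *Has3* rise from under 0.1 RPKM, and *Cemip* rises to the level of *Has2*.

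Among the proteins that shorten the chain, *Hyal1* and *Cemip* rose and *Hyal2* fell. *Hyal1* (ENSMUSG00000010051, chromosome 9 from 107576927 to 107581710) encodes a hyaluronidase that works in the acid of the lysosome. It was at 15.2, 17.9 and 16.4 CPM in control replicates 1, 2 and 3 and at 44.5, 46.3 and 41.2 CPM in senescent replicates 1, 2 and 3. Every senescent library was more than 2 times the highest control library, and the log2 fold change was 1.42 ± 0.08 (SE), or 2.67-fold (adjusted p = 2.99e-06, edgeR quasi-likelihood test, Benjamini-Hochberg adjusted). *Hyal1* shares 2824 bases of genome with *Nat6* and 893 with *Hyal3*, both on the same strand, so reads there could not be given to 1 gene by strand. *Nat6* and *Hyal3* also rose, with log2 fold changes of 0.82 and 0.67.

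*Hyal2* (ENSMUSG00000010047, chromosome 9 from 107567945 to 107572779) encodes a hyaluronidase anchored at the cell surface, where it cuts long chains. It was at 25.4, 29.8 and 27.6 CPM in control replicates 1, 2 and 3 and at 19.8, 22.2 and 12.0 CPM in senescent replicates 1, 2 and 3. Senescent replicate 3 was the lowest, and the log2 fold change was -0.62 ± 0.21 (SE) with an adjusted p of 0.0268 by the same edgeR test. Without senescent replicate 3 it was -0.38 (adjusted p = 0.000184), and the call was lost without control replicate 2 (0.0826), without control replicate 3 (0.0653) or without a filter on low counts (0.0893, all by the same edgeR test). The ratio of *Hyal2* to *Hyal1* per length changed sign on the log2 scale, from 0.94 ± 0.01 in control to -1.14 ± 0.39 in senescent cells (SD, n = 3 per group), so that *Hyal2* was above *Hyal1* in 3 of 3 control libraries and below it in 3 of 3 senescent libraries (p = 0.1 by the exact permutation test, 0.133 adjusted over 4 ratios). How reads of the stretches that *Hyal1* shares with *Nat6* and *Hyal3* were counted is not known. The level of *Hyal1* per length, and so the sign of this ratio, is therefore uncertain in each group. The fourth ratio, of *Has2* to *Hyal2*, was 1.73 ± 0.17 in control and 2.16 ± 0.61 in senescent cells and overlapped between the groups (p = 0.4 by the exact permutation test, 0.4 adjusted). The difference of 0.43 rested on senescent replicate 3 and was 0.079 without it.

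*Hyal1* and *Hyal2* lie side by side on chromosome 9, and 14 tested genes lie within 50 kb of the pair. The neighbours were looked at after the values of both genes had been seen. Counting *Hyal1* and *Hyal2*, 6 of the 14 genes were higher, 3 were lower and 5 did not pass an adjusted p of 0.05, so that 9 of 14 were called, near the 70.3% of all tested genes. *Tusc2* and *Rassf1*, which lie on the far side of *Hyal2* from *Hyal1*, had log2 fold changes of 0.67 and 0.80, and *Sema3b* had 1.38, close to that of *Hyal1*. *Ifrd2*, next to *Hyal3*, had -0.46 (adjusted p = 0.0544, same edgeR test). *Gm9917*, which overlaps the start of *Hyal2* on the other strand, had -0.09 and did not pass. *Cyb561d2* and *Gnai2*, farther out on either side, were lower with -0.53 and -0.76, so *Hyal2* was not the only decrease along this stretch.

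**Figure D3:**
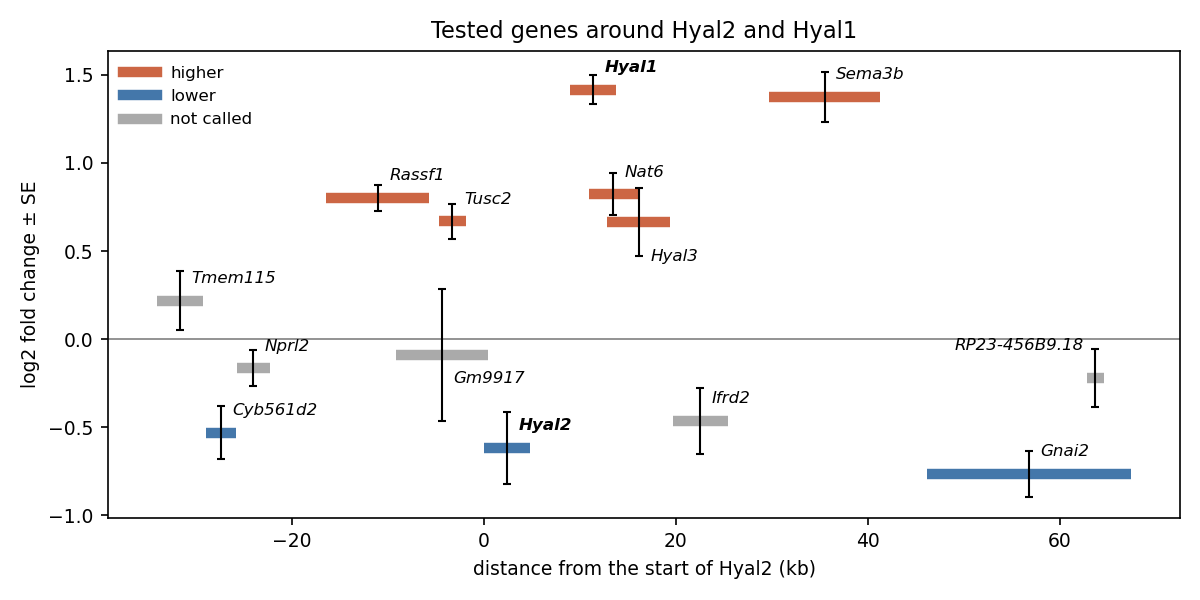
Log2 fold change ± SE of the 14 tested genes around *Hyal2* and *Hyal1*, against distance in kb from the start of *Hyal2*, with bars that span each gene and are coloured by the call at an adjusted p under 0.05. *Hyal2* lies at -0.62, with *Tusc2* at 0.67 and *Hyal1* at 1.42 on either side and *Gm9917* at -0.09 across its start.

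*Cemip* (ENSMUSG00000052353, chromosome 7 from 83932857 to 84086502) encodes a secreted protein needed for the breakdown of hyaluronan in skin fibroblasts. It was at 61.5, 58.6 and 58.2 CPM in control replicates 1, 2 and 3 and at 301, 298 and 305 CPM in senescent replicates 1, 2 and 3. Both groups were tight, senescent replicate 3 included, and the groups were far apart. The log2 fold change was 2.34 ± 0.05 (SE), or 5.07-fold (adjusted p = 2.56e-08, same edgeR test), which is the smallest standard error and the smallest p among the 8 genes. Per length, *Cemip* was at 4.86 ± 0.147 RPKM in control cells, below *Has2*, and at 24.6 ± 0.284 RPKM in senescent cells, where its range overlapped that of *Has2*.

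*Cd44* (ENSMUSG00000005087, chromosome 2 from 102811141 to 102901665) encodes the main receptor that holds hyaluronan at the cell surface. It was at 351, 330.4 and 333 CPM in control replicates 1, 2 and 3 and at 1222, 1226 and 1443 CPM in senescent replicates 1, 2 and 3. Senescent replicate 3 was the highest, and the lowest senescent library was far above the highest control library. The log2 fold change was 1.94 ± 0.08 (SE), or 3.84-fold (adjusted p = 3.95e-07, same edgeR test). Per length, *Cd44* was the highest of the 8 genes in both groups, at 49.9 ± 1.63 RPKM in control and 191 ± 18.7 RPKM in senescent cells (SD, n = 3 per group), and 1.02% of tested genes had a higher mean RPKM in senescent cells, against 6.29% in control cells. The counts are per gene and do not tell the splice variants of *Cd44* apart.

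*Tnfaip6* (ENSMUSG00000053475, chromosome 2 from 52038009 to 52056686) encodes TSG-6, a secreted protein that binds hyaluronan and links it to the heavy chains of inter-alpha-inhibitor. It was at 4.43, 5.05 and 4.31 CPM in control replicates 1, 2 and 3 and at 1.91, 2.16 and 2.55 CPM in senescent replicates 1, 2 and 3. All senescent values were lower than all control values, with a log2 fold change of -1.05 ± 0.13 (SE) and an adjusted p of 0.000216 by the same edgeR test. Its fold change lies at the limit of the methods threshold, and it fell short of this limit with scaling by library size alone (-0.97), without control replicate 2 (-0.98) or without senescent replicate 1 (-0.96), while its adjusted p was at most 0.00141 over the 13 alternatives run (edgeR or DESeq2).

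**Figure D4:**
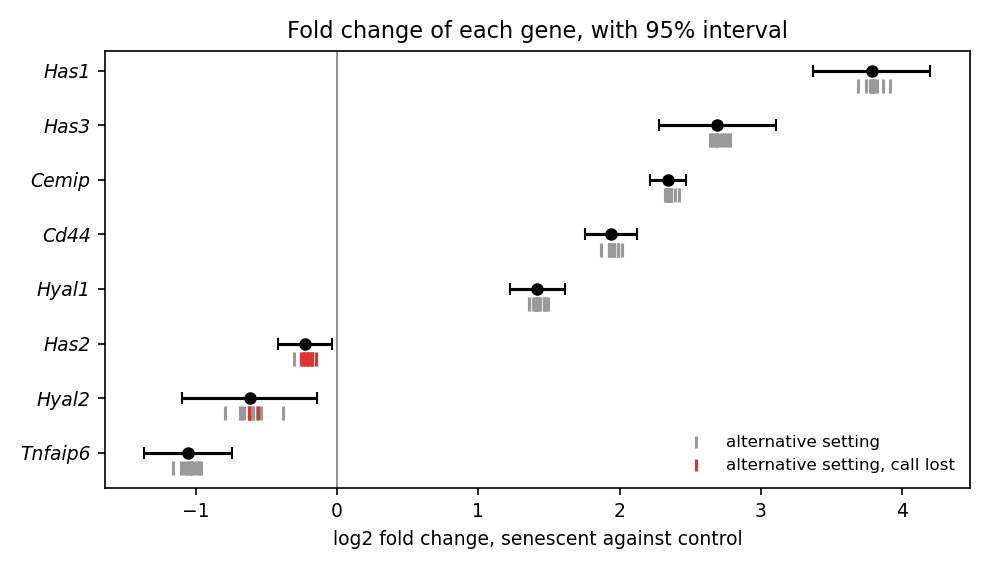
Log2 fold change of the 8 genes with the 95% interval of the edgeR fit, and below each a tick for every alternative setting, red where the adjusted p was no longer under 0.05. Red ticks occur for *Has2* and *Hyal2*, and the ticks of the other 6 genes are grey.

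Ordered per length, the 8 genes stood in control cells as *Cd44*, *Has2*, *Hyal2*, *Cemip*, *Hyal1*, *Tnfaip6*, *Has1* and *Has3*, from highest to lowest, and no neighbours in this order overlapped. *Cemip* and *Hyal1* were the closest, with lowest and highest values of 4.76 and 4.73 RPKM. In senescent cells the order was *Cd44*, *Cemip*, *Has2*, *Hyal1*, *Hyal2*, *Tnfaip6*, *Has1* and *Has3*, and *Cemip* and *Has2* were the only neighbours whose ranges overlapped. The place of *Hyal1* in both orders carries the limit on shared reads given above.

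The wider pathway was examined with 42 other genes in 6 groups, of which 34 were tested. With an adjusted p under 0.05 in the edgeR quasi-likelihood test, Benjamini-Hochberg adjusted, 16 were higher, 10 were lower and 8 did not pass. Of all tested genes, 36.2% were higher and 34.1% were lower, and the counts of each group below stand beside these shares. The 34 genes had a median of 0.17 on the log2 scale, also with the gene at 0 counts in control cells set to its bound, against 0.01 for all tested genes, and the share that passed is near the 70.3% of all genes.

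For the supply of the 2 sugar precursors, 2 of 7 genes were higher, 1 was lower and 4 did not pass. *Ugp2*, which makes UDP-glucose, fell from 193 to 119 CPM, a log2 fold change of -0.70. *Ugdh*, which oxidizes UDP-glucose to UDP-glucuronic acid, rose from 374 to 519 CPM with 0.47, and *Gnpnat1*, an enzyme on the way to UDP-N-acetylglucosamine, rose from 31.3 to 55.4 CPM with 0.83. *Gfpt1*, *Gfpt2*, *Pgm3* and *Uap1* of the same route had log2 fold changes between -0.07 and 0.17.

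Among other genes for the breakdown of the chain, 4 of 5 tested genes were higher and 1 was lower, all by less than 2-fold. With 5 genes, these counts only describe the group. *Hexa*, which serves the breakdown of sugar chains in the lysosome, rose from 159 to 243 CPM with 0.61 on the log2 scale, and *Hyal3* rose with 0.67. *Gusb*, the lysosomal enzyme that removes glucuronic acid, fell from 107 to 77.9 CPM, a log2 fold change of -0.46. *Hyal4*, *Hyal5*, *Hyal6* and *Spam1*, the last a hyaluronidase of sperm, had 0 counts in all control libraries and at most 8 counts in a senescent library, and were below the filter.

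Of 7 other receptors, 3 were higher, 2 were lower and 2 did not pass. *Hmmr*, whose product binds hyaluronan and also serves the mitotic spindle, had the largest decrease of the whole list, from 95.9 to 3.37 CPM (log2 fold change -4.83), beside the decrease of *Mki67* given above. *Tlr4*, an innate immune receptor, rose from 33.6 to 84.4 CPM with 1.33. *Tlr2* and *Stab2* did not pass, with 0.17 and -0.59. *Lyve1*, the receptor of lymphatic endothelium, rose from 0.451 to 2.31 CPM with 2.36, and *Stab1*, a scavenger receptor of macrophages and sinusoidal endothelium, went from 4, 9 and 1 counts in the control libraries to 61, 84 and 85 in the senescent libraries, with 3.56. Markers of both cell types, also at low levels, were higher too, and they were not set against other genes at such levels. With all genes of at least 1 count kept, the median log2 fold change was 0.315 over 29776 genes. Over the 17589 tested genes it was 0.01. This median was not split by level. All 5 tested endothelial markers of 6 were higher, where 36.2% of all tested genes were. The summed level of the 6 was 2.55 to 2.96 CPM in control and 8.03 to 8.44 CPM in senescent libraries. All 6 tested macrophage markers of 8 were higher too, with sums of 6.11 to 6.84 CPM and 14.6 to 17.3 CPM. Some of these genes passed the filter only through their senescent libraries, so they could hardly be called lower. Among them were *Cdh5*, with 3, 4 and 9 control and 30, 36 and 41 senescent counts, and *Itgam*, with 0, 0 and 1 against 38, 29 and 39. The same holds for *Stab1*. *Tie1* had at most 2 counts in any library and *C1qa* had 0 counts in all senescent libraries. Of 6 keratinocyte markers, 3 were tested and 1 was lower, and their sum was between 15.8 and 16.6 CPM in control and between 7.71 and 7.83 CPM in senescent libraries. *Trp63* alone carried this decrease, from 13.1 to 4.17 CPM, while *Krt10* was at 1.95 and 1.94 CPM and *Krt5* at 1.00 and 1.53 CPM. The part of such cells in the values of *Lyve1*, *Stab1*, *Has1* and *Has3* was not tested.

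The matrix partners of hyaluronan held the largest decrease in level of the wider list. *Acan*, the cartilage proteoglycan aggrecan that binds hyaluronan in large aggregates, fell from 1853 ± 40.6 to 131 ± 3.02 CPM (mean and SD of 3 libraries), or by -3.82 on the log2 scale. *Hapln1*, the link protein that fixes aggrecan to the chain, fell from 97.5 to 13.9 CPM with -2.81. *Hapln4*, a link protein known from the brain, rose from 8.01 to 16.1 CPM with 1.01, and *Ncan*, a proteoglycan of the brain, had 0 counts in every control library and 38, 48 and 29 counts in senescent replicates 1, 2 and 3, at least 9.52-fold higher against a limit of 3 counts per control library. *Ncan* passed the filter through its senescent libraries alone, so it could not have been called lower. In all, 3 of 7 tested genes were higher, 3 were lower and *Hapln3*, with 0.50, did not pass. *Hapln2* had at most 5 counts in any library and was below the filter. *Acan* is also in the list of chondrocyte markers, whose 9 tested genes all fell, with a median log2 fold change of -4.02. In such bulk samples, fewer chondrocytes and less of these RNAs per cell cannot be told apart, and the part of the chondrocyte genes in the decrease of *Tnfaip6* and *Has2* was not tested.

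Among the heavy chains of inter-alpha-inhibitor and the proteins that cross-link the chain with them, 2 of 4 tested genes were higher and 2 were lower. *Ptx3*, a pentraxin that TSG-6 and the heavy chains bind, went from 709.5 to 411 CPM, or -0.79 on the log2 scale, in the same direction as *Tnfaip6*. *Itih5* fell with -0.68, and *Itih2* and *Itih4* rose with 0.20 and 0.98. *Itih1*, *Itih3* and *Ambp* had at most 7 counts in any library and were below the filter. Of the 4 genes whose products link CD44 to the actin cytoskeleton or bind these linkers, *Msn* rose from 793 to 1722 CPM (log2 fold change 1.12) and *Nf2* rose with 0.67, while *Ezr* fell from 61.4 to 33.2 CPM with -0.89 and *Rdx* had -0.23 (adjusted p = 0.0713, edgeR quasi-likelihood test, Benjamini-Hochberg adjusted).

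**Figure D5:**
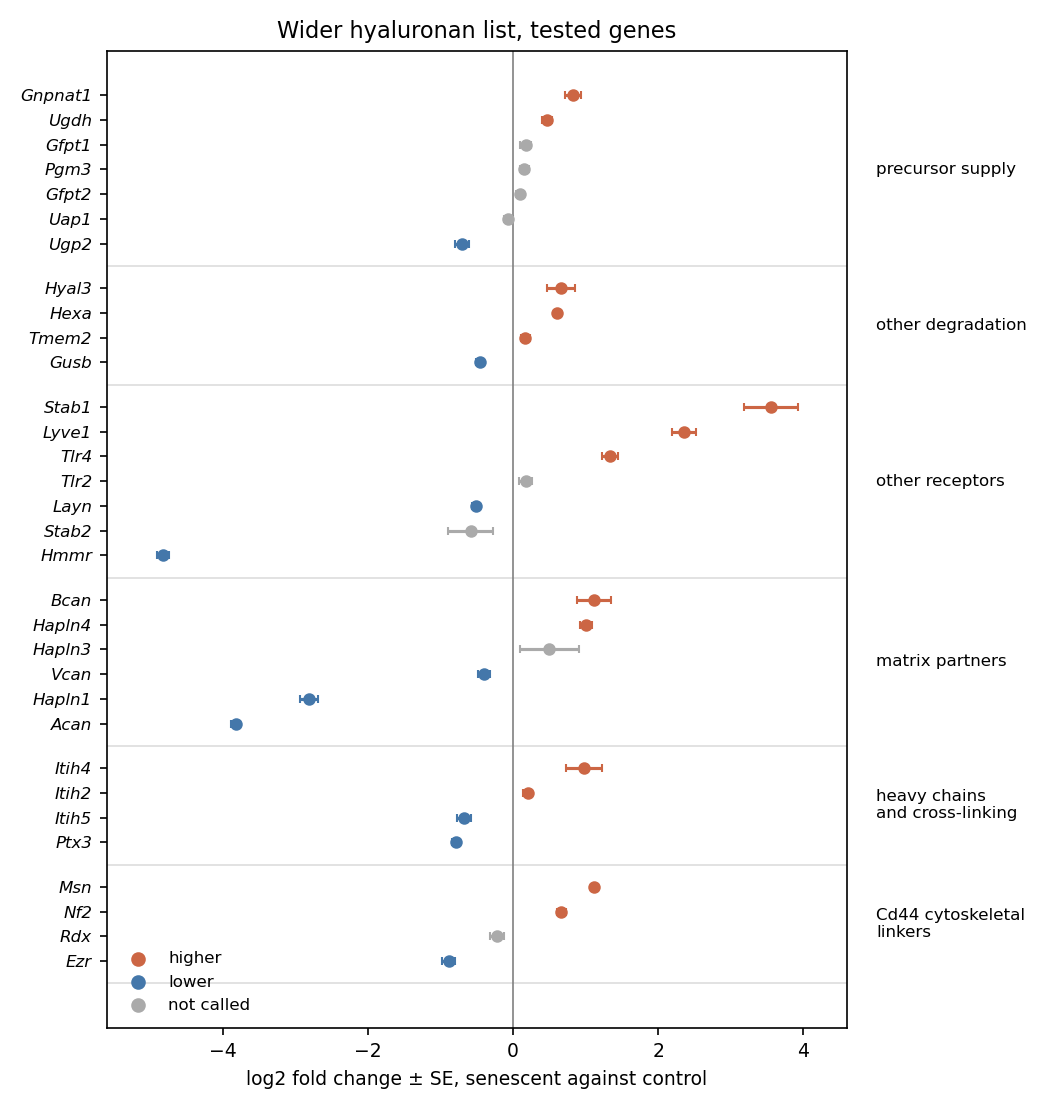
Log2 fold change ± SE of tested genes from the wider hyaluronan list in 6 groups, coloured by the call at an adjusted p under 0.05, without *Ncan*, which had 0 counts in control cells. *Hmmr* at -4.83, *Acan* at -3.82 and *Hapln1* at -2.81 lie farthest to the left, and *Stab1* at 3.56 farthest to the right.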

How the data were processed

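The deposited values are raw read counts per gene, listed with exon lengths. To obtain them, the authors ran MAPRSeq, in which STAR aligned the read pairs (genome build mm10) and Subread did the gene counting. The library kit was stranded, but how the counting treated strand and reads with several places is not given in the sources used here. Libraries were TMM-scaled, genes kept by filterByExpr (17589 of 43346), and the groups set against each other in a robust quasi-likelihood fit with Benjamini-Hochberg adjustment (edgeR 4.0.16, R 4.3.3), two-sided, with the group as the only term. RPKM use the deposited exon length. A count of 0 allows up to 3 counts per library (0.0355 to 0.0613 CPM), a limit that covers counting error alone. Alternatives were RLE scaling, library size alone, other filters, edgeR's exact test, DESeq2 1.42.0, a replicate block and leaving out each library. The methods were tested on simulated data in which 200 of 17245 genes changed 2-fold, and the main test recovered 193 with 11 false calls. In the real data 70.3% of tested genes were called, so this simulation does not give the error rate here. The 8 genes and the lists were chosen with earlier results of these data known. Of the wider list, up to 4 called genes per group with the smallest p are named, along with those that were not tested or did not pass, and *Has2os*, *Chtf8*, *Nat6*, *Tusc2*, *Rassf1*, *Sema3b*, *Ifrd2*, *Gm9917*, *Cyb561d2* and *Gnai2* fall outside this rule and were chosen by position after the values were seen. *Tmem2*, *Lect1* and *Emr1* stand in the table for *Cemip2*, *Cnmd* and *Adgre1*. The counts over the wider list include 1 gene of the breakdown group that is not reported here by name.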

Additional observations from a re-analysis of the deposited data

How the results depend on the processing

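*Has1*, *Has3*, *Hyal1*, *Cemip*, *Cd44* and *Tnfaip6* kept their direction and an adjusted p under 0.05 in every alternative run, except that *Has1* could not be tested with at least 10 counts in every library. The call of *Has2* was lost with RLE scaling (log2 fold change -0.21), library size alone (-0.15), at least 10 counts in every library (-0.18), DESeq2 (-0.21) and the replicate block (-0.23), and that of *Hyal2* without a filter (-0.62). Leaving out 1 library moved *Has2* between -0.31 and -0.18 and *Hyal2* between -0.79 and -0.38, and the number of the 8 genes called lower between 1 (without control replicate 2 or 3) and 3. The number past the methods threshold as lower was 0 with library size alone, and between 0 and 1 with a library left out. Same-numbered libraries did not deviate together (correlations of -0.145, 0.135 and -0.120), so the numbers were not taken to pair samples. The replicate block called 11624 genes in place of 12365, and among the 8 genes it changed the call of *Has2* alone. *Has1* and *Has3* had at most 16 counts in a control library, which limits the precision of their folds.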
